A study of Mus musculus with 6 samples.

Results

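Amino acid and neurotransmitter transporters of the solute carrier (SLC) families SLC1, SLC3, SLC6, SLC7, SLC36, SLC38 and SLC43 were compared between sciatic nerves of control and Rnf40ΔSC mice. Genes were taken by symbol, from entries of the count tables named Slc1a, Slc3a, Slc6a, Slc7a, Slc36a, Slc38a or Slc43a followed only by a number. The report covers 58 of 24015 entries, with 7 in SLC1, 2 in SLC3, 16 in SLC6, 15 in SLC7, 4 in SLC36, 11 in SLC38 and 3 in SLC43.

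The study asked what the loss of Rnf40, a subunit of the E3 ligase that attaches a single ubiquitin to histone H2B, does to gene expression in Schwann cells, the glia of peripheral nerve. Mouse sciatic nerves were taken at postnatal day 14 and pooled by 3, and RNA-Seq was done on 3 such pools of each genotype. Control mice were Rnf40 fl/fl without Cre, and Rnf40ΔSC mice carried the same floxed alleles together with a Dhh::Cre transgene. Cre is driven by the Dhh promoter in the Schwann cell lineage from embryonic stages on, so that other cells of the nerve keep Rnf40. The labels give all mice a mixed 129SvJ/C57Bl/6J background, whereas the methods name C3H in place of 129SvJ. Library totals were 1317167, 1992622 and 2468765 counts in control and 2184268, 1459387 and 2186710 counts in Rnf40ΔSC replicates 1 to 3.

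The 7 families carry amino acids and related compounds across the plasma membrane and the membranes of lysosomes. SLC1 and SLC6 proteins use sodium gradients to take up glutamate, GABA, glycine, taurine or creatine, and in nervous tissue glial members clear transmitters from the extracellular space. SLC3 glycoproteins pair with SLC7 light chains to form exchangers, SLC36 proteins couple transport to protons, and SLC38 proteins carry glutamine and other small neutral amino acids.

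Rnf40 itself had 127, 123 and 138 normalized counts in control and 87.7, 87.9 and 91.5 in Rnf40ΔSC replicates 1 to 3. A normalized count is the deposited count divided by the TMM-scaled size of its library and multiplied by the geometric mean of these sizes. Folds are ratios of mean normalized counts and can differ from the log2 fold changes beside them, which come from the fit. All Rnf40ΔSC libraries lay below all control libraries, and Rnf40 fell (log2 fold change -0.54, SE 0.14, adjusted p = 0.00242), but with total-count scaling in place of TMM the value was -0.27 with an adjusted p of 0.12. Counts run over the whole gene and over all cells of the nerve, including those without Cre. Rnf20, the partner subunit, had 124, 124 and 109 normalized counts in control and 171, 179 and 133 in Rnf40ΔSC libraries and rose (log2 fold change 0.44, SE 0.13, adjusted p = 0.00998). Rnf20 was 0.71 (adjusted p = 5.82e-05) with total-count scaling, and did not pass in DESeq2 (0.45, adjusted p = 0.0665, and 0.43, adjusted p = 0.0648, where a prior shrinks fold changes), without control replicate 3 (0.37, adjusted p = 0.087) or without Rnf40ΔSC replicate 1 (0.40, adjusted p = 0.057).

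Of these 58 transporter genes, 5 had no read in any library, 22 had reads but stayed below the filter on low counts, and 31 were tested together with all other genes. At an adjusted p of at most 0.05 (quasi-likelihood test of edgeR, Benjamini-Hochberg adjustment over 11371 genes), 9 of the 31 were lower in Rnf40ΔSC nerves, against 16.2% of all genes tested, and 6 were higher, against 15.4%. The limits of the study further ask that the log2 fold change reaches 0.8 in either direction and that the base mean, the mean normalized count over 6 libraries, reaches 20. By these limits Slc7a2 and Slc38a2 were lower, 2 genes beside 4.99% of all genes tested, and Slc6a15, Slc38a1 and Slc38a4 were higher, 3 genes beside 3.65%. In normalized counts the libraries of the genotypes did not overlap for 20 of the 31 transporter genes, beside 43.5% of all genes tested. Separation without overlap was therefore common in these data. The median log2 fold change was -0.22 over the 31 transporter genes and 0 over all genes tested. With total-count scaling the median of all genes moved to 0.27, and 6 transporter genes were then lower and 9 higher (880 and 3766 of all genes). Changes are therefore given relative to the typical gene of the nerve.

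**Figure D1:**
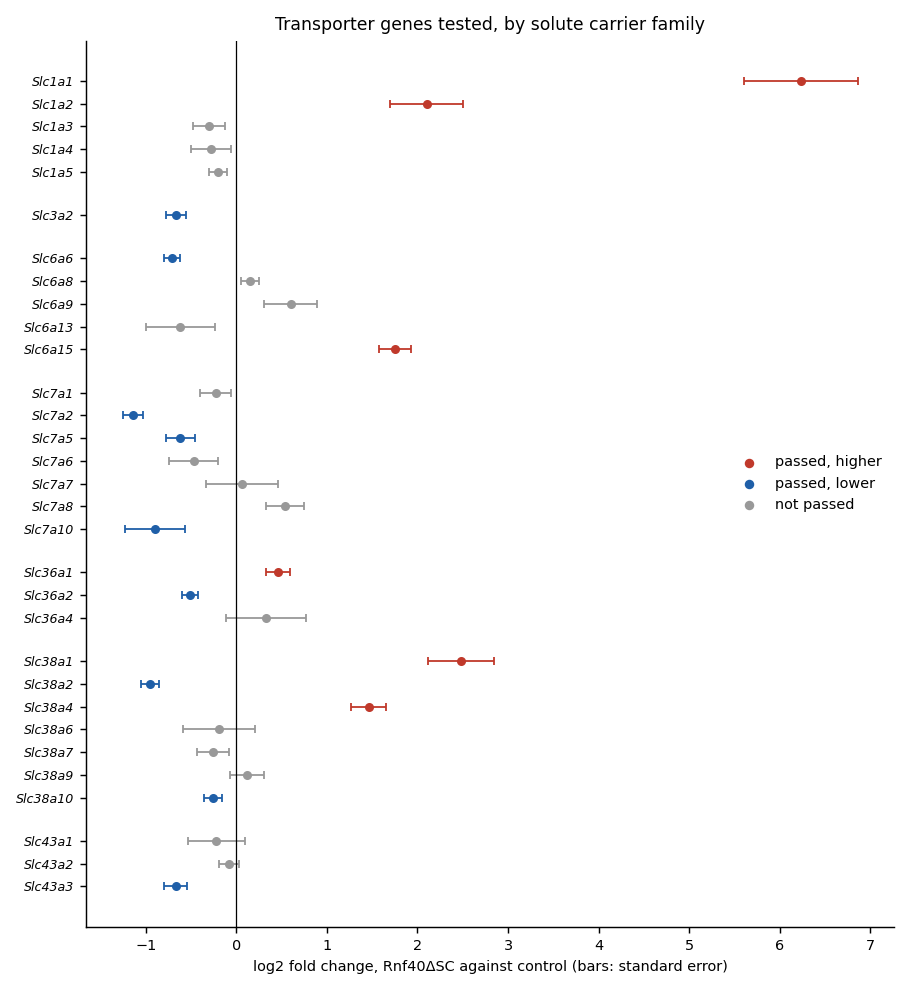
Log2 fold change of Rnf40ΔSC against control for the 31 transporter genes tested, grouped by family from SLC1 at the top to SLC43 at the bottom. Points are estimates and bars standard errors, red marks genes that passed as higher, blue as lower and grey those that did not pass; Slc1a1 stands farthest right at 6.23 and Slc7a2 farthest left at -1.14.

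Among the high-affinity glutamate transporters of SLC1, Slc1a1 (EAAC1, also EAAT3; NCBIM37 chr19:28909539-28988450, plus strand) and Slc1a2 (GLT-1, the main glutamate transporter of astrocytes) were higher in Rnf40ΔSC nerves. Slc1a1 had 0, 1 and 0 reads in control and 39, 33 and 49 in Rnf40ΔSC replicates 1 to 3. It was thus close to undetected in every control pool and present in every Rnf40ΔSC pool. The ratio of the summed counts, scaled by library size, was 99.6 with an exact 95% interval from 17.6 to 3967, which covers counting error only. The gene rose (6.23, adjusted p = 8.67e-11), and this fitted value depends on how the near absence of control reads is handled, as it was 3.30 in DESeq2 with a fold-change prior and 8.23 without control replicate 2, which held the single control read. A transcript on the other strand, 4430402I18Rik, shares 3.0% of the exon bases of Slc1a1 and was higher as well, with 5, 8 and 8 against 24, 26 and 14 reads (1.35, adjusted p = 0.0104).

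Slc1a2 (NCBIM37 chr2:102498816-102630941, plus strand) had 0, 11 and 9 reads in control and 41, 25 and 38 in Rnf40ΔSC libraries, or 0, 11.7 and 7.53 against 33.0, 29.3 and 29.5 normalized counts. The groups did not overlap, and the control libraries differed among themselves more than the Rnf40ΔSC libraries. Slc1a2 rose (log2 fold change 2.1, SE 0.40, adjusted p = 9.35e-05). Base means of 18.2 for Slc1a1 and 18.5 for Slc1a2 kept both genes outside the limits of the study. Without control replicate 1 or 2 they entered them, as the base mean then gives the Rnf40ΔSC libraries more weight. In these fits 5 transporter genes were called higher, beside 452 of 11706 and 423 of 11729 genes tested. Without control replicate 3, 4 transporter genes were called higher, beside 422 of 11615 genes tested. Slc1a3 (GLAST), the glutamate transporter with most counts here, had 72.5, 54.0 and 90.4 normalized counts in control and 59.6, 60.9 and 58.2 in Rnf40ΔSC libraries. These ranges overlapped and the gene did not pass (-0.30, adjusted p = 0.23). The remaining glutamate transporters, Slc1a6 and Slc1a7, had at most 2 reads in any library.

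The neutral amino acid exchangers of SLC1 did not pass. Slc1a5 (ASCT2), which exchanges glutamine for other neutral amino acids and made up 76.6% of the SLC1 counts in control, had 399 ± 33.9 normalized counts in control and 349 ± 39.4 in Rnf40ΔSC nerves (SD, n = 3). Its log2 fold change was -0.20 (adjusted p = 0.134) and turned to 0.07 with total-count scaling. Slc1a4 (ASCT1), a carrier of serine, alanine and cysteine, had 41.6 ± 8.16 and 34.2 ± 2.06 normalized counts (-0.28, adjusted p = 0.376).

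Heteromeric exchangers consist of a heavy chain of SLC3 and a light chain of SLC7. Slc3a2 (CD98 or 4F2 heavy chain), which brings several light chains to the plasma membrane, had 259, 330.4 and 311 normalized counts in control and 196, 173 and 199 in Rnf40ΔSC libraries. Every Rnf40ΔSC library lay below every control library, and Slc3a2 fell 1.59-fold (log2 fold change -0.67, SE 0.11, adjusted p = 7.08e-06; -0.40 and adjusted p = 0.00347 with total-count scaling). The other heavy chain, Slc3a1, had at most 2 reads in a library.

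The light chain Slc7a5 (LAT1), which imports leucine and other large neutral amino acids together with Slc3a2, had 109.6, 123 and 97.1 normalized counts in control and 59.6, 89.0 and 68.3 in Rnf40ΔSC libraries. The highest Rnf40ΔSC value, in replicate 2, came near the lowest control value without reaching it. Slc7a5 fell (log2 fold change -0.62, SE 0.16, adjusted p = 0.00304), but did not pass with total-count scaling (-0.35, adjusted p = 0.0879). Slc7a8 (LAT2), a light chain with similar substrates, moved the other way in its means, from 47.0 ± 12.5 to 65.8 ± 19.2 normalized counts (SD, n = 3), with overlapping libraries. It did not pass (0.54, adjusted p = 0.0543), but passed in 6 of 13 alternatives, with total-count scaling (0.80, adjusted p = 0.00397), without a filter (0.54, adjusted p = 0.0286), with a minimum of 10 counts (0.56, adjusted p = 0.0385), with the replicate block (0.50, adjusted p = 0.0483), without control replicate 1 (0.68, adjusted p = 0.0332) and without Rnf40ΔSC replicate 2 (0.71, adjusted p = 0.0105).

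Slc7a10 (Asc-1), an exchanger of glycine, alanine and serine, had 15, 17 and 35 reads in control and 18, 11 and 14 in Rnf40ΔSC libraries, which is 23.2, 18 and 29.3 against 14.5, 12.9 and 10.9 normalized counts. The groups did not overlap and Slc7a10 fell (log2 fold change -0.90, SE 0.33, adjusted p = 0.0313), with a base mean of 18.1. The fall did not pass with total-count scaling (-0.63, adjusted p = 0.12), with DESeq2 (adjusted p = 0.191 and 0.185), without control replicate 1 (-0.91, adjusted p = 0.058) or 3 (-0.67, adjusted p = 0.222), or without Rnf40ΔSC replicate 2 (-0.90, adjusted p = 0.0613) or 3 (-0.77, adjusted p = 0.0922). Lrp3 on the other strand shares 29.5% of the exon bases of Slc7a10 and had 50.9, 54.0 and 48.5 and 43.5, 52.7 and 44.2 normalized counts (-0.14, adjusted p = 0.633). Slc7a6 and Slc7a7, the y+L-type light chains that exchange cationic for neutral amino acids, had base means of 24.4 and 10.9 and did not pass. Slc7a11 (xCT), the cystine-glutamate exchanger, remained below the filter with 2 reads summed over control and 15 over Rnf40ΔSC libraries. The scaled ratio was 6.18 with an interval from 1.44 to 55.7, which covers counting error only. Where it was fitted, in edgeR without the filter and in DESeq2, Slc7a11 did not pass. Slc7a9, Slc7a12, Slc7a13 and Slc7a15 had at most 3 reads in any library.

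Of the cationic amino acid transporters, Slc7a2 (CAT2; NCBIM37 chr8:41947750-42007662, plus strand), which takes up arginine, lysine and ornithine, had 313, 424 and 397 normalized counts in control and 179.5, 178 and 161 in Rnf40ΔSC libraries. The 3 Rnf40ΔSC libraries were close together and far below the lowest control library. Slc7a2 fell 2.19-fold (log2 fold change -1.14, SE 0.11, adjusted p = 1.44e-10), and passed in all 13 alternatives of the processing with values between -1.25 and -0.87. Slc7a1 (CAT1), the widely expressed arginine transporter, had 80.3, 71.0 and 66.1 normalized counts in control and 63.6, 58.6 and 60.5 in Rnf40ΔSC libraries, lower without overlap as well, and did not pass (-0.23, adjusted p = 0.329); its sign turned with total-count scaling (0.04). Slc7a3 and Slc7a4 had at most 7 reads in a library and Slc7a14 at most 1.

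In SLC6, the taurine transporter Slc6a6 (TauT) had 628, 654 and 709 normalized counts in control and 427, 387 and 399 in Rnf40ΔSC libraries. No library of one genotype came near those of the other, and Slc6a6 fell 1.64-fold (log2 fold change -0.71, SE 0.09, adjusted p = 1.29e-07; -0.45 and adjusted p = 0.000213 with total-count scaling). Slc6a8, the creatine transporter, had 339.5, 429 and 366 against 406, 394 and 456 normalized counts. These values overlapped and Slc6a8 did not pass (0.15, adjusted p = 0.287), but it passed as higher with total-count scaling (0.42, adjusted p = 0.00111).

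Slc6a15 (B0AT2; NCBIM37 chr10:102830477-102882011, plus strand), a sodium-dependent carrier of branched-chain amino acids and proline known from neurons, had 41.7, 36 and 27.6 normalized counts in control and 118, 122 and 106 in Rnf40ΔSC libraries. Each Rnf40ΔSC library held more than any control library by a wide margin. Slc6a15 rose 3.29-fold (log2 fold change 1.75, SE 0.18, adjusted p = 6.34e-10), with values from 1.58 to 2.02 over the alternatives, all of which it passed. Slc6a7, Slc6a14, Slc6a17, Slc6a18 and Slc6a19, carriers of proline and other neutral amino acids, had at most 4 reads in any library.

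Slc6a13 (GAT2), a carrier of GABA, had 17.0, 13.8 and 15.9 against 7.24, 10.5 and 12.4 normalized counts and did not pass (-0.62, adjusted p = 0.218). Slc6a11 and Slc6a12, which also carry GABA, had at most 5 reads in a library.

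The glycine transporter Slc6a9 (GlyT1) had 17.0, 15.9 and 19.2 normalized counts in control and 22.5, 26.9 and 30.3 in Rnf40ΔSC libraries. Although the Rnf40ΔSC values were all above the control values, the gene did not pass (0.60, adjusted p = 0.114). It passed as higher with total-count scaling (0.87, adjusted p = 0.0156). Ccdc24 on the other strand shares 27.8% of its exon bases and had at most 6 reads in a library. Slc6a5, the neuronal glycine transporter, had no read, nor had the dopamine transporter Slc6a3. The noradrenaline transporter Slc6a2 and the serotonin transporter Slc6a4 had at most 3 and 2 reads in a library.

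SLC36 held the transporter gene with the highest level per length. Slc36a2 (PAT2), a proton-coupled carrier of glycine, alanine and proline that was described in myelinating Schwann cells, had 909, 1039 and 928 normalized counts in control and 689.7, 664 and 666 in Rnf40ΔSC libraries. The Rnf40ΔSC libraries were nearly equal to each other and all below control. Slc36a2 fell 1.42-fold (log2 fold change -0.51, SE 0.09, adjusted p = 2.49e-05) and passed in all 13 alternatives, with -0.24 as the smallest change under total-count scaling. Its neighbour Slc36a1 (PAT1), a proton-coupled carrier of the lysosomal membrane, lies 19.3 kilobases away on the other strand of chromosome 11 and had 92.6, 107 and 112 against 145, 148 and 140.4 normalized counts. Here the order of the groups was the reverse, again without overlap, and Slc36a1 rose (log2 fold change 0.46, SE 0.13, adjusted p = 0.00713; 0.73 and adjusted p = 3.66e-05 with total-count scaling), although it narrowly missed the threshold in DESeq2 without a fold-change prior (adjusted p = 0.0517). The entry Slc36a1os, named as the opposite strand of Slc36a1, rose too, with 14, 15 and 25 reads in control and 31, 33 and 46 in Rnf40ΔSC libraries (0.75, adjusted p = 0.0326), and reads from both strands cannot be told apart if the counting ignored strand. Slc36a4 had a base mean of 10.7 and did not pass, and Slc36a3 had at most 1 read in a library.

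The 3 system A transporters of SLC38, which bring glutamine, alanine and other small neutral amino acids into the cell together with sodium, did not move as a group. Slc38a1, Slc38a2 and Slc38a4 follow each other on the minus strand of chromosome 15, with 44.5 kilobases between Slc38a1 and Slc38a2 and 295.1 kilobases between Slc38a2 and Slc38a4 in NCBIM37. Slc38a2 (SNAT2; chr15:96517825-96530129), the member known to be induced by amino acid shortage, had 693, 901 and 819 normalized counts in control and 423, 399.5 and 431 in Rnf40ΔSC libraries. The Rnf40ΔSC libraries lay far below every control library, and Slc38a2 fell 1.93-fold (log2 fold change -0.95, SE 0.10, adjusted p = 6.9e-10; -0.68 and adjusted p = 8.04e-07 with total-count scaling).

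Slc38a1 (SNAT1; chr15:96401849-96473344), a glutamine transporter known from neurons, had 6.17, 8.47 and 11.7 normalized counts in control and 31.4, 80.8 and 48.9 in Rnf40ΔSC libraries. All Rnf40ΔSC libraries exceeded all control libraries, but they differed among themselves, with replicate 2 highest. Slc38a1 rose 6.11-fold (log2 fold change 2.48, SE 0.36, adjusted p = 6.52e-06), and without that replicate its log2 fold change was 2.11 (adjusted p = 5.44e-06). Slc38a4 (SNAT4; chr15:96825254-96886387), known from liver and placenta, had 41.7, 27.5 and 31.8 against 82.1, 102 and 90.0 normalized counts. The groups were far apart, and Slc38a4 rose 2.71-fold (log2 fold change 1.46, SE 0.19, adjusted p = 1.63e-07). The directions of these 3 genes were the same in every alternative that could be fitted for them. Because Slc38a2 held most of the counts, the summed system A counts were lower in Rnf40ΔSC libraries, with 537, 582 and 569 against 741, 937 and 863 in control.

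Start regions are shown for the pair of glutamate transporters that rose and for 2 of the system A neighbours that moved in opposite directions, to set the genes side by side at the level of sequence. RefSeq promoter windows (GRCm38.p6) were found for 41 of the 58 transporter genes and for 8 of the 15 that passed the test. Each line gives the 250 bases before a start of transcription listed in RefSeq. Windows were found by symbol and were not matched to the gene positions given above, which are of another build. A window can therefore lie at a start within a gene. Capitals mark a match to one of 2 motifs searched on both strands, with N for any base. GCGNGGGCG is a loose form of the letters bound by zinc finger proteins of the EGR family. TGATGNAA is the core of elements that answer to amino acid shortage through ATF4.
Slc1a1, chr19:28834885-28835134, plus strand: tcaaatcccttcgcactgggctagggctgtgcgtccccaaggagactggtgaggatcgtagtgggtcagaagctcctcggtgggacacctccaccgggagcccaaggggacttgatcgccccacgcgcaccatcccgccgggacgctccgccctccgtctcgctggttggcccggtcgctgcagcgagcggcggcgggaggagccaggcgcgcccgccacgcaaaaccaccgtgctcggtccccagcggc
Slc1a2, chr2:102706188-102706437, plus strand: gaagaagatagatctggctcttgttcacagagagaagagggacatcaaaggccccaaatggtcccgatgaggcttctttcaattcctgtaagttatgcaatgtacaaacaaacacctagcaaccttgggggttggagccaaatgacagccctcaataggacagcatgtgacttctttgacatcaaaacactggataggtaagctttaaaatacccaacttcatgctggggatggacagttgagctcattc
Slc38a2, chr15:96699729-96699978, minus strand: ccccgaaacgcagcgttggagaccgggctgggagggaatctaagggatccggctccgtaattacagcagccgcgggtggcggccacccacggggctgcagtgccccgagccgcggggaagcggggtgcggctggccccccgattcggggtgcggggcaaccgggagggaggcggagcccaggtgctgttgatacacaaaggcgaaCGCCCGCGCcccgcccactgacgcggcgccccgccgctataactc
Slc38a4, chr15:97055957-97056206, minus strand: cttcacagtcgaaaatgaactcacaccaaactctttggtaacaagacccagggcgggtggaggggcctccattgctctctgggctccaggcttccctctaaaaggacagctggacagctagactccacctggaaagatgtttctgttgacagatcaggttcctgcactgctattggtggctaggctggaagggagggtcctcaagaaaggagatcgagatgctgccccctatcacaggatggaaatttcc
The Slc38a2 window matched the loose EGR letters on the reverse strand, 45 to 37 bases before the start, and the other 3 windows held neither motif. In this match the base at N is C, whereas the matches before Slc1a6 and Slc7a6 have G and T. Slc38a4 has 3 starts in the table, of which the first listed is shown. The EGR letters were present in 4.7% of all 32851 windows of this length and the amino acid response letters in 3.45%. Among transporter genes the former occurred also before Slc1a6 and Slc7a6 and the latter before Slc7a7 and Slc7a11. Each motif was matched in 3 of the 62 windows of transporter genes. The windows of Slc1a1 and Slc38a2 are rich in CG dinucleotides, with 27 and 30, and those of Slc1a2 and Slc38a4 poor, with 1 and 3, against a median of 6 over all windows. A match is a description of the letters, and binding was not measured in these libraries.

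**Figure D2:**
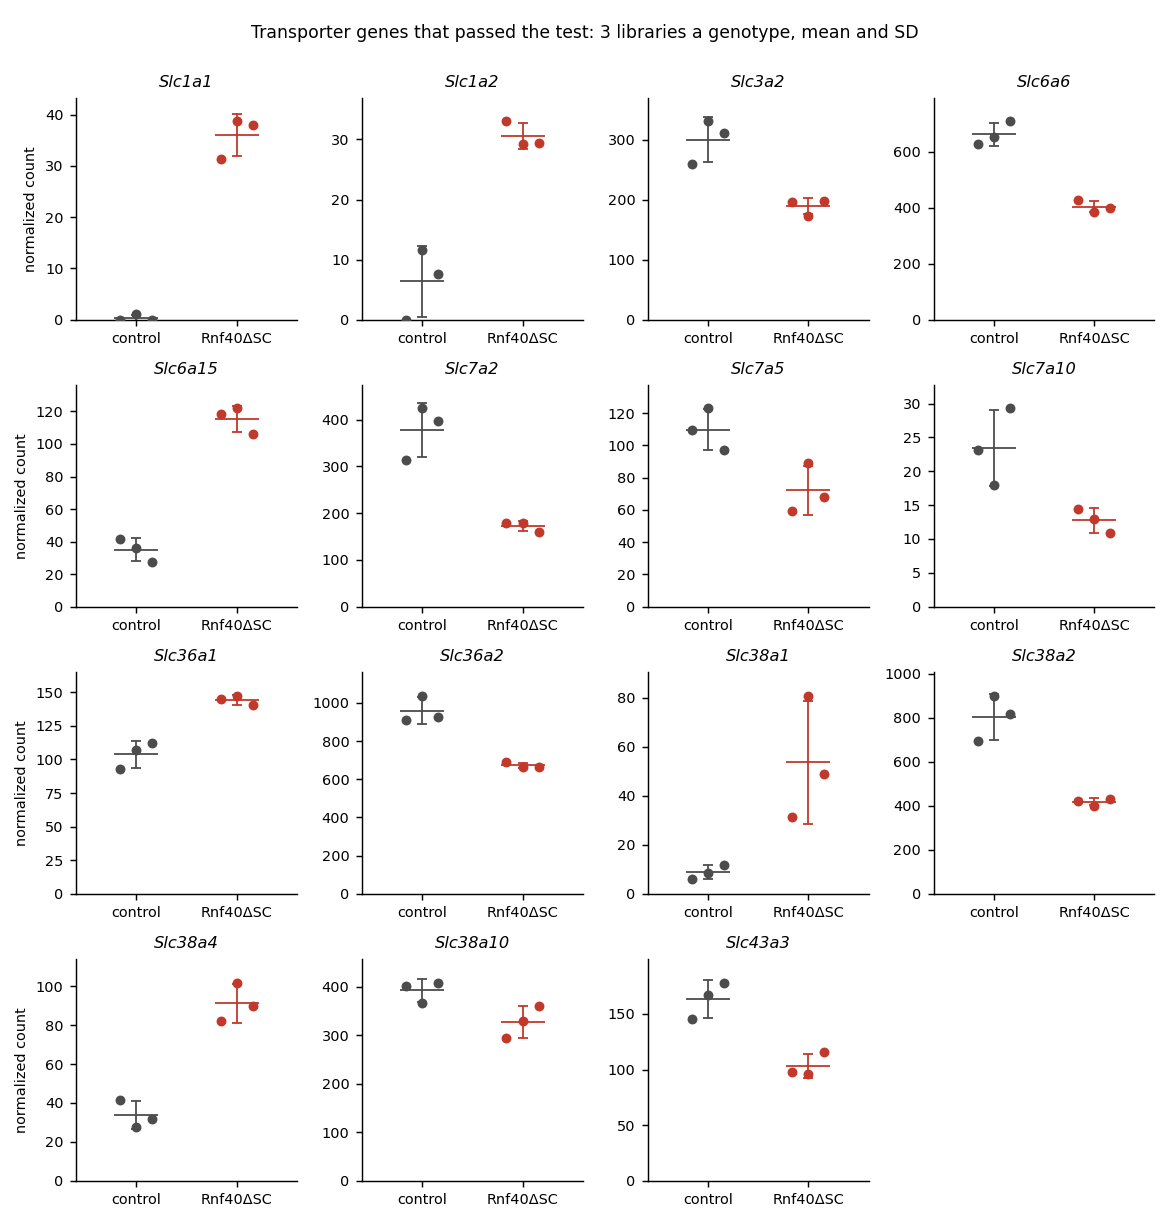
Normalized counts of the 15 transporter genes that passed the test, in 3 control (dark) and 3 Rnf40ΔSC (red) libraries each, with the mean as a line and the SD as bars; every axis starts at 0. Relative to its mean the spread among Rnf40ΔSC libraries is widest for Slc38a1, from 31.4 to 80.8.

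Slc38a10, an SLC38 member of less known function, had 403, 366 and 409 normalized counts in control and 295, 330.4 and 359.9 in Rnf40ΔSC libraries. The highest Rnf40ΔSC value, in replicate 3, was just below the lowest control value. Slc38a10 fell by a small margin (log2 fold change -0.26, SE 0.10, adjusted p = 0.0442), and the call was lost in 10 of 13 alternatives, where adjusted p-values reached 0.945. The libraries whose omission ended it were control replicates 1 (-0.24) and 3 (-0.23) and Rnf40ΔSC replicates 1 (-0.17) and 2 (-0.26), and with total-count scaling the value turned to 0.01.

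Slc38a9, the arginine sensor of the lysosomal membrane that acts on mTORC1, had 52.7 ± 5.54 normalized counts in control and 56.1 ± 7.22 in Rnf40ΔSC nerves (SD, n = 3) and did not pass (0.12, adjusted p = 0.687). Slc38a7, a lysosomal glutamine carrier, did not pass either (-0.26, adjusted p = 0.287; 0.01 with total-count scaling), nor did Slc38a6 with a base mean of 12.1. The system N transporters, which release glutamine in liver and astrocytes, were hardly detected. Slc38a3 had 2 reads summed over control and 10 over Rnf40ΔSC libraries (scaled ratio 4.12, interval from 0.877 to 38.6), and Slc38a5 had 1 and 0. Slc38a8 had no read and Slc38a11 at most 3 in a library.

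In SLC43, Slc43a3, a carrier of purine bases in spite of its family, had 145, 167 and 178 normalized counts in control and 98.2, 96.1 and 116 in Rnf40ΔSC libraries. The Rnf40ΔSC libraries lay below control without overlap, and Slc43a3 fell 1.58-fold (log2 fold change -0.67, SE 0.13, adjusted p = 0.000127; -0.40 and adjusted p = 0.0161 with total-count scaling). Slc43a2 (LAT4), which exports large neutral amino acids, had 237 ± 13.7 and 223 ± 37.0 normalized counts with overlapping libraries (-0.08, adjusted p = 0.617; 0.19 with total-count scaling). Slc43a1 (LAT3), with the same kind of substrate, lies 73.0 kilobases from Slc43a3 on chromosome 2 and did not pass (-0.22, adjusted p = 0.633; 0.05 with total-count scaling).

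Levels of different genes were compared as normalized counts per kilobase of exons, for 23 of the 24 transporter genes whose base mean reached 20, since the symbol Slc38a9 has no unique entry in the annotation. In control the highest level was that of Slc36a2 with 295 ± 21.6 per kilobase (SD, n = 3), followed by Slc38a2 with 174 ± 22.7. Slc6a6 (108 ± 6.67), Slc3a2 (102 ± 12.4) and Slc1a5 (96.1 ± 8.16) came next and lay within their spread of each other. Thus glycine, alanine, glutamine and taurine carriers led the order, whereas the glutamate transporter Slc1a3 stood lower, at 8.47 ± 2.13 per kilobase.

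In Rnf40ΔSC nerves Slc36a2 (207 ± 4.41 per kilobase) and Slc38a2 (90.3 ± 3.51) still had the highest means, but Slc38a2 was now within the spread of Slc1a5 (84.1 ± 9.48) and close to Slc6a8 (80.4 ± 6.33). Slc7a2 went from position 8 to 14 of the 23, at 41.4 ± 6.31 and 18.9 ± 1.15 per kilobase. Slc6a15 went from position 16 to 8, at 9.73 ± 1.96 and 32.0 ± 2.26, and Slc38a4 from 19 to 11, at 8.35 ± 1.80 and 22.7 ± 2.48. Even after its rise Slc38a1 remained low, at 6.40 ± 2.99 per kilobase.

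**Figure D3:**
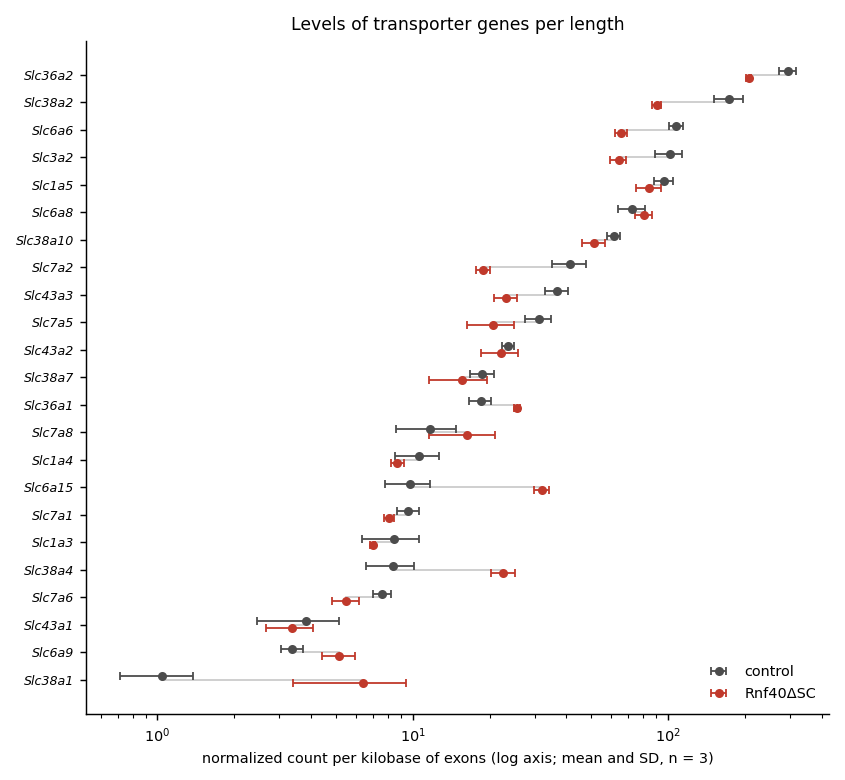
Level per length, as normalized counts per kilobase of exons on a log axis, for 23 transporter genes ordered by their control mean. Dark points are means of 3 control and red points of 3 Rnf40ΔSC libraries with SD bars; Slc36a2 heads the order in both genotypes, at 294.5 and 207.

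Summed by family, normalized counts of SLC3, SLC6, SLC7, SLC36 and SLC38 were lower in Rnf40ΔSC libraries, and with total-count scaling the SLC6 ratio turned to 1.06 and the SLC38 libraries overlapped. The SLC7 sum was 625, 715 and 689 normalized counts in control and 427, 434 and 431 in Rnf40ΔSC libraries, a ratio of the means of 0.636. SLC3 had a ratio of 0.635 and consisted almost wholly of Slc3a2. SLC38 went from 1385 ± 93.7 to 1026 ± 47.2 (SD, n = 3), SLC36 from 1072 ± 79.0 to 829.8 ± 19.2 and SLC6 from 1125 ± 57.3 to 988 ± 34.4, each with all Rnf40ΔSC libraries below all control libraries.

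The SLC43 sums, 381, 439 and 448 in control and 336, 299.9 and 401 in Rnf40ΔSC libraries, overlapped. SLC1 had 521 ± 44.2 and 511 ± 39.3, mostly from Slc1a5, with a ratio of 0.98 that turned to 1.18 with total-count scaling. Family sums weigh abundant genes most. In control, Slc36a2 gave 89.4% of the SLC36 counts, Slc38a2 58.1% of SLC38, Slc7a2 55.9% of SLC7 and Slc6a6 59.0% of SLC6, and in Rnf40ΔSC nerves Slc6a8 took the lead in SLC6 with 42.4%. All families together had 5109, 5753 and 5648 normalized counts in control and 4315, 4247 and 4404 in Rnf40ΔSC libraries, a ratio of 0.785. As a share of all reads, without TMM, they took 0.251, 0.273 and 0.273% of the control and 0.245, 0.248 and 0.26% of the Rnf40ΔSC libraries, which overlap.

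**Figure D4:**
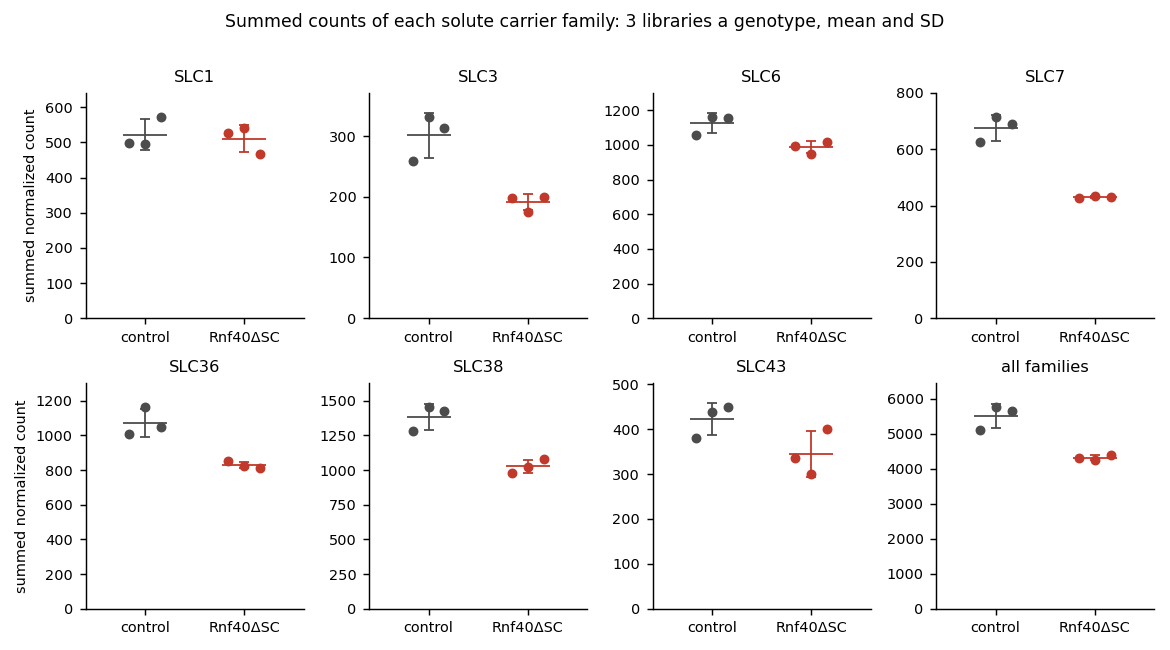
Summed normalized counts of each solute carrier family and of all 7 families, in 3 control (dark) and 3 Rnf40ΔSC (red) libraries, with the mean as a line and the SD as bars; every axis starts at 0. Rnf40ΔSC libraries lie below control libraries in SLC3, SLC6, SLC7, SLC36 and SLC38, and the genotypes overlap in SLC1 and SLC43; with total-count scaling SLC6 and SLC38 overlap too, at ratios of 1.06 and 0.894.

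Genes that make, use or sense the transported amino acids were taken from lists of pathway genes. They are given by how many passed the same test, beside 16.2% lower and 15.4% higher of all genes tested. With total-count scaling 880 and 3766 of all 11371 genes passed as lower and higher. With DESeq2 these were 1170 and 1097 of 17139 genes, or 1191 and 1123 with a fold-change prior. Of 13 tested enzymes of glutamate, glutamine, GABA and proline, 1 was lower and 2 were higher, with total-count scaling 0 and 3, and with DESeq2 0 and 2. Glul, glutamine synthetase, rose from 1323 ± 159 to 1991 ± 91.9 normalized counts (SD, n = 3; 0.59, adjusted p = 1.66e-06), and Abat, the GABA transaminase, rose as well (0.41, adjusted p = 0.00229). Aldh18a1, which starts proline synthesis from glutamate, fell (-0.53, adjusted p = 0.0482), a call lost with total-count scaling and with DESeq2.

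Of 12 tested receptor subunits for glutamate, GABA and glycine, 2 were lower and 4 higher, or 1 and 6 with total-count scaling and 2 and 3 with DESeq2. The AMPA receptor subunit Gria2 had 9.26, 9.53 and 9.20 normalized counts in control and 86.9, 104 and 87.6 in Rnf40ΔSC libraries. It rose together with Gria1, for which 2 control reads stood against 65 Rnf40ΔSC reads (scaled ratio 26.8, interval from 7.12 to 226). The GABA receptor genes Gabra3 (-1.07, adjusted p = 0.000166) and Gabbr1 (-0.54, adjusted p = 0.000504) fell. None of the 7 vesicular transmitter transporters passed the filter on low counts. Slc17a8 (VGLUT3) had the most reads of these, 1, 4 and 1 in control and 27, 17 and 7 in Rnf40ΔSC libraries.

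Of 7 tested enzymes of arginine and nitric oxide metabolism 4 were lower (2 with total-count scaling and 2 with DESeq2). They were Odc1 (-0.59, adjusted p = 0.000471), the first enzyme of polyamine synthesis, the endothelial nitric oxide synthase Nos3 (-1.09, adjusted p = 0.00697), and Ddah1 (-0.32, adjusted p = 0.0106) and Ddah2 (-0.60, adjusted p = 0.0315), which degrade methylated arginines. Of 13 tested genes of creatine, taurine and glutathione metabolism 1 was lower and 0 were higher, and with total-count scaling 1 and 2. The lower one was Gatm, the first enzyme of creatine synthesis, which fell from 3153 ± 76.2 to 1896 ± 84.3 normalized counts (-0.73, adjusted p = 1.26e-09).

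Of 15 tested genes of the amino acid response, 3 were lower, and with total-count scaling 2 were lower and 2 higher, and with DESeq2 2 were lower. Atf4, the transcription factor that drives this response, had 298, 279.6 and 286 normalized counts in control and 196, 182 and 202 in Rnf40ΔSC libraries and fell (-0.57, adjusted p = 3.92e-05). Psat1 of serine synthesis (-0.56, adjusted p = 0.00011) and the stress protein gene Nupr1 (-0.54, adjusted p = 0.0217) were the others. The median log2 fold change of the 15 genes was -0.07.

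Of 20 cytosolic aminoacyl-tRNA synthetases, 1 was lower (Vars, -0.77, adjusted p = 0.00554) and 2 higher (Tars, 0.46, adjusted p = 0.00461, and Farsa, 0.73, adjusted p = 0.0198). With total-count scaling 0 were lower and 11 higher, and with DESeq2 0 were lower and 1 higher, so that the call of Vars was lost in both. Of 29 tested genes for amino acid sensing by mTORC1, 1 was lower and 3 were higher, with Sesn1 (-0.37, adjusted p = 0.00659) lower and Sar1b (0.78, adjusted p = 0.000156), Sesn3 (1.29, adjusted p = 0.00644) and Lamtor1 (0.65, adjusted p = 0.0298) higher. With total-count scaling 0 were lower and 9 higher, and with DESeq2 1 was lower and 1 higher, or 2 higher with a fold-change prior. Among 13 tested amino acid transporters of other families, 4 were lower and 1 was higher (2 and 1 with total-count scaling, 3 and 1 with DESeq2). The mitochondrial aspartate-glutamate carriers Slc25a12 (-0.76, adjusted p = 0.00239) and Slc25a13 (-1.51, adjusted p = 0.000463) and the lysosomal cystine exporter Ctns (-0.57, adjusted p = 0.00136) fell, and Slc25a44, a mitochondrial carrier of branched-chain amino acids, rose (0.79, adjusted p = 0.000132).

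Because RNA came from whole nerve, these libraries cannot tell fewer cells of a type from less RNA per cell. Markers of the cell types of nerve are given beside the transporter genes. By staining at this age, the paper found a comparable share of Schwann cells in both genotypes and more macrophages in Rnf40ΔSC nerves. Of all genes tested 16.2% were lower and 15.4% higher, or 880 and 3766 of 11371 with total-count scaling. Of 7 Schwann cell lineage markers 6 were lower and 1 (Foxd3) was higher, with Sox10 as the most abundant. Their sums were 2846, 3202 and 3135 normalized counts in control and 1711, 1713 and 1624 in Rnf40ΔSC libraries. Of 7 markers of myelinating Schwann cells 6 were lower, with Pmp22 the most abundant (-2.13, adjusted p = 6.86e-25), and Egr2 was higher (0.36, adjusted p = 0.00579), with summed counts of 148700, 165200 and 158500 and 44750, 41630 and 40770. Of 8 markers of immature or non-myelinating Schwann cells 2 were lower and 4 higher, Pou3f1 being the most abundant (2.05, adjusted p = 9.27e-12). Their sums were 1431, 1476 and 1380 in control and 2583, 3231 and 2600 in Rnf40ΔSC libraries. With total-count scaling 2 were lower and 5 higher, and with DESeq2 2 and 3, or 2 and 4 with a fold-change prior. The labelled tissue thus showed its defining Schwann cell and myelin genes in every library.

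Markers of other cells of the nerve are read against 16.2% of all genes tested that were lower, or 880 of 11371 with total-count scaling. With DESeq2 1170 of 17139 genes were lower, or 1191 with a fold-change prior. Fibroblast markers fell in 7 of 8 genes (sums 54520, 53160 and 58000 in control and 40710, 38250 and 39600 in Rnf40ΔSC libraries, Col1a2 most abundant). Perineurial markers fell in 5 of 7 tested (sums 2400, 2933 and 2655 and 1725, 1576 and 1684, Sfrp5 most abundant). Endothelial markers fell in 6 of 10 (sums 1594, 1444 and 1614 and 1036, 1037 and 1185, Cdh5 most abundant). All these sums were lower in each Rnf40ΔSC library than in each control library, as were Slc36a2, Slc38a2, Slc6a6 and Slc7a2. With total-count scaling 4 fibroblast, 3 perineurial and 2 endothelial markers fell, and 1 fibroblast marker rose, and with DESeq2 6, 3 and 5 fell.

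Pericyte and smooth muscle markers fell in 6 of 9 genes (sums 2388, 1821 and 2041 in control and 1251, 1241 and 1614 in Rnf40ΔSC libraries, Pdgfrb most abundant). Macrophage markers fell in 7 of 11 tested (sums 1049, 961 and 1032 and 716, 705 and 719, Csf1r most abundant), and Aif1 had at most 3 reads in a library. This direction is the opposite of the paper's staining for Iba1, which found more macrophages in Rnf40ΔSC nerves at this age. Mast cell and lymphocyte markers fell in 3 of 5 tested (sums 120.4, 146 and 175 and 105, 85.5 and 86.1, Cpa3 most abundant), with Cd3e and Cd79a at no more than 3 reads in a library. With total-count scaling 4 pericyte and smooth muscle, 2 macrophage and 2 mast cell and lymphocyte markers fell, and with DESeq2 3 macrophage markers and 1 mast cell and lymphocyte marker did. The share of these cell types in the falls of transporter genes was not tested.

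Adipocyte markers fell in 4 of 8 genes, beside 16.2% of all genes tested (sums 2321, 1724 and 2965 in control and 1807, 1659 and 1356 in Rnf40ΔSC libraries, Fabp4 most abundant). The sums overlapped, and with total-count scaling 3 of these markers fell, beside 880 of all 11371 genes. Neuronal markers had low sums (74.1, 85.8 and 79.5 and 98.2, 78.5 and 68.3, Nefh most abundant), with Rbfox3, Elavl4 and Th at no more than 3 reads in a library. Of 4 tested, with a median log2 fold change of -0.13, 1 was higher, Snap25 (1.5, adjusted p = 0.00375), and 0 were higher with DESeq2 without a fold-change prior. Whether neuronal RNA takes part in the rises of transporter genes was not tested.

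Skeletal muscle markers set single libraries apart. Their sums were 9388, 7153 and 5287 normalized counts in control and 221, 574 and 7082 in Rnf40ΔSC replicates 1 to 3, with Myh4 as the most abundant, so that Rnf40ΔSC replicate 3 stood within the range of control and replicates 1 and 2 far below. Of the 15 markers 0 passed edgeR's test, 0 had an unadjusted p under 0.05, and 0 passed with DESeq2. Whether muscle content bears on the transporter genes was not tested.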

How the data were processed

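The authors mapped the reads with TopHat to mm9, counted uniquely mapped reads per gene with HTSeq, and deposited these raw counts as 1 table a library, not normalized. Bowtie2 2.1.0 is listed in the submitters' processing notes. Gene annotation and strand setting of the counting are not given in the sources used here, and labels (NEB Next Ultra) and methods (a directional kit) name different library kits, so that reads of overlapping genes on opposite strands are uncertain. Group and replicate number were taken from the labels, and 0 of the 24015 entries name no gene.

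The test was that of edgeR 4.0.16 under R 4.3.3 (filterByExpr, 11371 genes, TMM, robust quasi-likelihood fit, genotype as the only term, Benjamini-Hochberg adjustment over all genes tested). Positions and exon lengths came from GENCODE vM1 (NCBIM37), counted from 1, where 57 of the 58 symbols occur exactly once, and promoter windows from RefSeq (GRCm38.p6). Intervals of count ratios are exact Clopper-Pearson intervals on the summed reads. At totals of 1317167 to 2468765 counts, 1 read is worth 0.405 to 0.759 CPM, and genes with a few reads per library have no usable estimate. Replicates of a group differed by more than sampling noise (chi-square per degree of freedom from 1.78 to 5.21).

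Named were Rnf40, Rnf20, the 58 transporter genes, and from each pathway or marker list at most 4 genes with the smallest adjusted p, its most abundant gene, or for markers a gene at an end of the range of the list or with at most 3 reads in each library. Genes overlapping or beside a transporter gene (4430402I18Rik, Lrp3, Ccdc24, Slc36a1os) were added after values were seen. The transporter genes and the lists were chosen with earlier results of these data known, and no list was tested as a whole. Some genes are not reported here and were left out of all counts and sums over transporter genes and lists. Alternatives were RLE size factors, total-count scaling, DESeq2 1.42.0 without a prior on fold changes or with it, keeping genes of low count or asking for 10 counts or more per library, a block for the replicate number, and leaving out single libraries.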

Additional observations from a re-analysis of the deposited data

How the results depend on the processing

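Of 395 values of single transporter genes under the alternatives, 357 kept direction and side of the threshold, 18 kept direction but no longer passed, 8 newly passed and 12 changed sign, 1 of which (Slc38a10) no longer passed as well. No gene that passed changed sign except Slc38a10, and Slc1a1, Slc1a2, Slc3a2, Slc6a6, Slc6a15, Slc7a2, Slc36a2, Slc38a1, Slc38a2, Slc38a4 and Slc43a3 passed in every alternative that could be fitted for them. Signs turned with total-count scaling for Slc1a5 (0.07), Slc7a1 (0.04), Slc38a6 (0.08), Slc38a7 (0.01), Slc38a10 (0.01), Slc43a1 (0.05) and Slc43a2 (0.19), and with 1 library left out for Slc7a7 (range -0.18 to 0.26, with -0.0044 without control replicate 1), Slc38a6 (-0.49 to 0.16), Slc43a1 (-0.41 to 0.07) and Slc43a2 (-0.21 to 0.02). The cause was not tested, other than that this scaling moves all genes up by 0.27 at the median.

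With total-count scaling 6 transporter genes passed as lower, and 1 was called lower and 5 higher by the limits of the study, beside 880 and 3766 of all genes that passed as lower and higher and 261 and 1008 that were called. DESeq2 passed 1170 and 1097 genes without and 1191 and 1123 with its prior, against 1841 and 1756, but DESeq2 was run on 17139 genes and edgeR on 11371, so that test and gene set changed together, and edgeR without its filter passed 1852 and 1923. Rnf20 was 0.45 and 0.43 in DESeq2. Rnf40 was -0.27 with total-count scaling. With each library left out in turn, 7 to 9 transporter genes passed as lower and 6 to 7 as higher, 2 were called lower in each case and 3 to 5 higher, 1439 to 1992 of all genes passed as lower and 1293 to 1915 as higher, 548 to 697 and 371 to 469 were called, and Rnf40 lay between -0.58 and -0.48 and Rnf20 between 0.37 and 0.58.

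No pairing of the libraries by replicate number was seen. Deviations from the group means of same-numbered libraries correlated at -0.09, -0.02 and -0.06 across 11371 genes, which are not independent replicates. With 3 libraries a genotype, these values cannot exclude that same-numbered libraries were handled together. With the replicate number as a block, 8 transporter genes passed as lower and 7 as higher, and 2 and 3 were called. Of all 11371 genes 1837 and 1727 then passed and 566 and 408 were called, and Rnf40 was -0.54 and Rnf20 0.43. Depth limits the 22 transporter genes with reads below the filter, which were fitted only in alternatives without it, and 3 pools a genotype measure the spread between pools.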
